A study of Mus musculus and Homo sapiens with 16 samples.

Results

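Serine palmitoyltransferase and its regulators are described here as 9 genes, all 9 found by symbol among the 39179 genes of the annotated count files. They are Sptlc1, Sptlc2 and Sptlc3 (the large subunits), Sptssa and Sptssb (the small subunits), Kdsr (the next enzyme) and Ormdl1, Ormdl2 and Ormdl3 (the inhibitors). Serine palmitoyltransferase joins serine to palmitoyl-CoA at the membrane of the endoplasmic reticulum, which is the first and rate-limiting step of sphingolipid synthesis. The SPTLC1 protein pairs with SPTLC2 or SPTLC3, which carry the catalytic site, a small subunit raises the activity, and ORMDL proteins hold the enzyme back when ceramide is plentiful. In the epidermis this route feeds the ceramides that fill the spaces between cells of the stratum corneum and limit water loss.

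RNA was measured by sequencing in 10 libraries of C57BL/6 mouse skin epithelium, labelled Klf5-/- or Klf5+/-, so the controls carry 1 mutant allele. KLF5 is a zinc finger transcription factor of epithelia. The E17.5 set (embryonic) held 3 libraries labelled Klf5-/- and 3 labelled Klf5+/-, from dissociated epidermis, where living cells lacking CD45 and bearing integrin alpha 6 were sorted. The HFD set, with 2 libraries labelled Klf5-/- and 2 labelled Klf5+/-, came from peeled epidermis that was ground without sorting. The labels do not expand HFD and give no age for it, and they do not say how the mutant allele was made or which cells it was deleted in. KLF5 and H3K27ac ChIP-seq and ATAC-seq were each done on 1 sample of sorted E17.5 epithelium given as wild type, although the ATAC title carries the word Het. H3K27ac is a histone mark of active promoters and enhancers, and ATAC-seq finds open chromatin. Whether each library came from its own animal is not stated, so the p-values speak of the spread among these libraries, part of which may be technical.

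Counts on genes ranged from 31819010 to 46445546 per library, and levels are given as CPM, counts relative to library size after TMM scaling (a correction for library make-up) within each set. Klf5 itself averaged 183 ± 12.7 CPM in the E17.5 Klf5-/- libraries and 181 ± 18.0 CPM in the Klf5+/- libraries (SD, n = 3 each), and 110 ± 13.1 CPM in the HFD Klf5-/- libraries and 52.8 ± 14.1 CPM in the Klf5+/- libraries (n = 2 each). The HFD difference missed the threshold with edgeR's quasi-likelihood test (log2 fold change 1.06, adjusted p = 0.0533) and passed it with DESeq2 (adjusted p = 0.0012). The labels do not give the deleted stretch, so counts over the whole gene cannot check the genotypes, and every direction below follows the labels. All 15 keratinocyte markers were detected in both sets. In the HFD set the marker sums of several cell types differed between the genotypes without overlap, while those of melanocytes, sebaceous gland and skeletal muscle overlapped. The 8 suprabasal keratinocyte markers summed to 50700 and 55600 CPM in the Klf5-/- libraries, against 24200 and 25000 CPM in the Klf5+/- libraries. The 7 basal markers summed to 18800 and 20100 CPM in the Klf5-/- libraries, against 15400 and 9790 CPM in the Klf5+/- libraries. The 8 fibroblast markers summed to 4650 and 760 CPM in the Klf5-/- libraries, against 16600 and 20100 CPM in the Klf5+/- libraries. At E17.5 the suprabasal markers summed to 32000 to 50500 CPM in the Klf5-/- libraries and 59500 to 75100 CPM in the Klf5+/- libraries, and the fibroblast markers to 616 to 689 CPM in the Klf5-/- libraries and 421 to 570 CPM in the Klf5+/- libraries. In the HFD set endothelial markers summed to 11.3 to 52.6 CPM in the Klf5-/- libraries and 268 to 311 CPM in the Klf5+/- libraries, erythroid markers to 316 to 407 CPM in the Klf5-/- libraries and 877 to 924 CPM in the Klf5+/- libraries, and adipocyte markers to 10.0 to 62.9 CPM in the Klf5-/- libraries and 119 to 238 CPM in the Klf5+/- libraries. In bulk RNA, fewer cells of a type and less RNA per cell cannot be told apart.

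Per length, the small subunit Sptssa was the most abundant transcript of the family in all 4 groups and Sptssb the least abundant. In RPKM, which divides a count by exon length and library size, Sptssa averaged 185 ± 25.8 in the E17.5 Klf5-/- libraries, 188 ± 32.1 in the E17.5 Klf5+/- libraries, 194 ± 0.97 in the HFD Klf5-/- libraries and 154 ± 34.7 in the HFD Klf5+/- libraries. In the E17.5 Klf5-/- libraries the order below Sptssa was Sptlc1 at 26.8 RPKM, Ormdl3 at 24.9, Sptlc3 at 24.0, Sptlc2 at 8.37, Ormdl2 at 8.36, Ormdl1 at 6.70 and Kdsr at 5.70 RPKM. The library ranges of the neighbours Ormdl3 and Sptlc3, Sptlc2 and Ormdl2, and Ormdl1 and Kdsr overlapped in that group. In the E17.5 Klf5+/- libraries the order was Sptlc1 at 28.7, Sptlc3 at 28.3, Ormdl3 at 23.1, Ormdl2 at 10.3, Sptlc2 at 8.53, Ormdl1 at 6.86 and Kdsr at 5.92 RPKM, with overlap between Sptlc1 and Sptlc3, Sptlc2 and Ormdl1, and Ormdl1 and Kdsr. In the HFD Klf5-/- libraries Sptlc3 came second at 66.6 RPKM, its range overlapping that of Sptlc1 at 47.3 RPKM. Ormdl2 followed at 35.1, Ormdl3 at 14.3, Sptlc2 at 9.93, Ormdl1 at 7.45 and Kdsr at 7.34 RPKM, and only Ormdl1 and Kdsr overlapped among these. In the HFD Klf5+/- libraries Sptlc1 came second at 31.0 RPKM, followed by Ormdl2 at 26.0, Sptlc3 at 22.3, Ormdl3 at 22.0, Sptlc2 at 8.47, Ormdl1 at 6.74 and Kdsr at 6.40 RPKM. There the ranges of Ormdl2 and Sptlc3, Sptlc3 and Ormdl3, Sptlc2 and Ormdl1, and Ormdl1 and Kdsr overlapped.

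**Figure D1:**
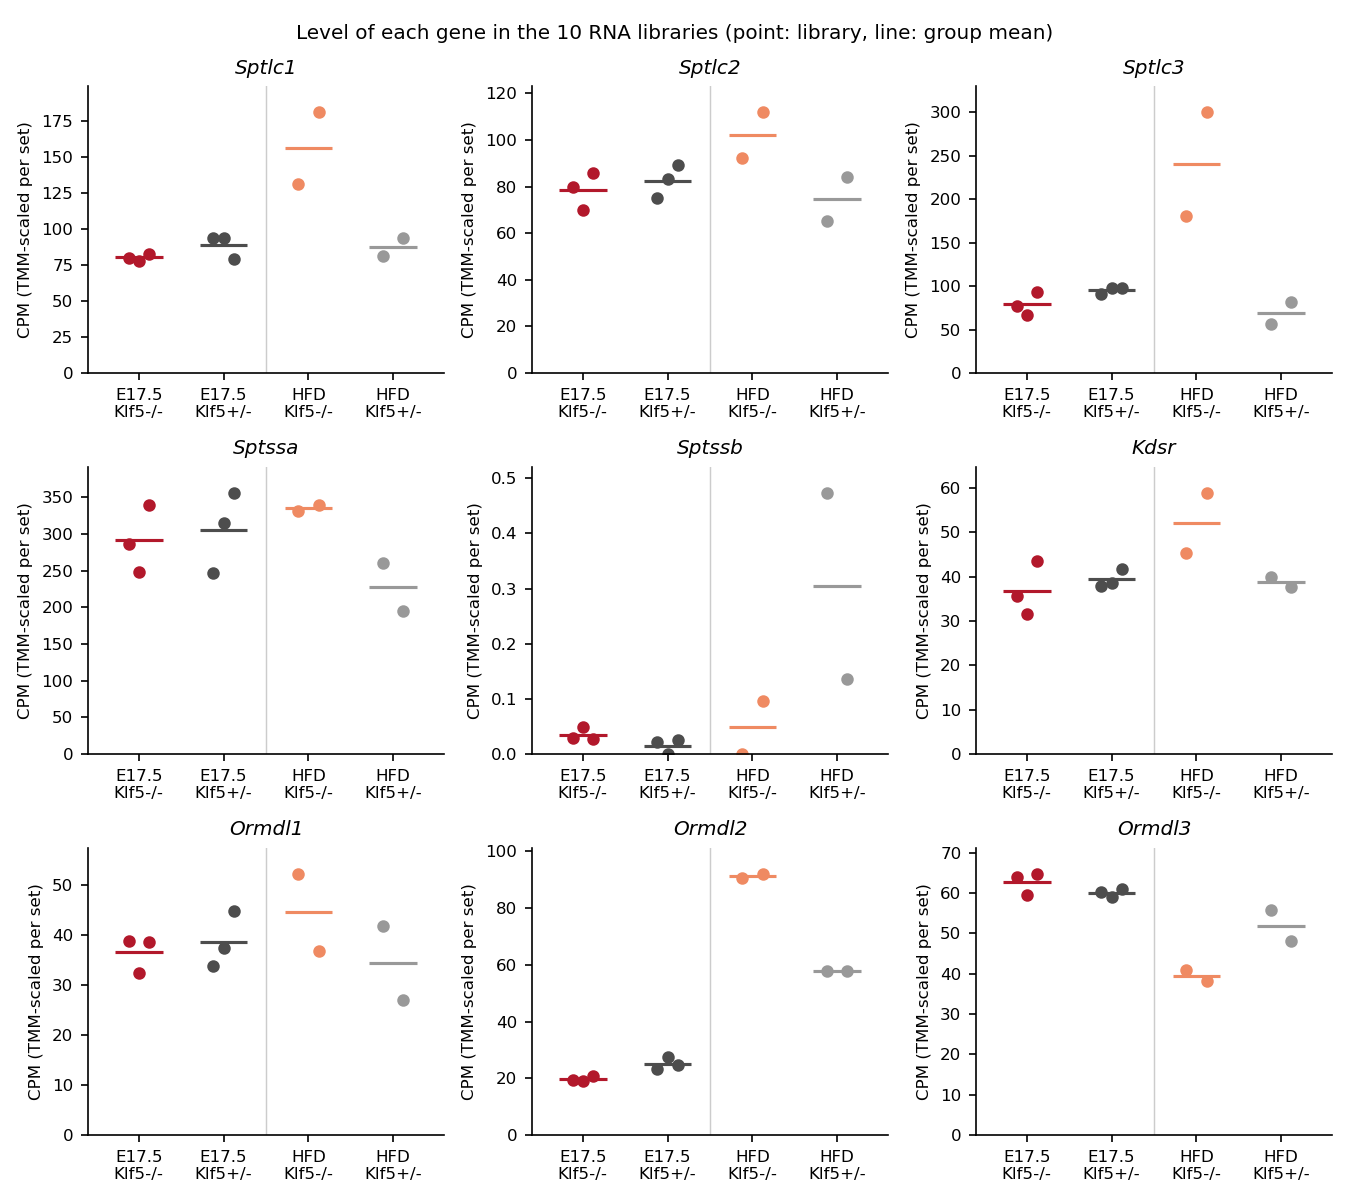
Level of each of the 9 genes in CPM (linear axes from 0, TMM-scaled within a set) in the 10 libraries, with a point per library, a line at the group mean and Klf5-/- to the left of Klf5+/-. Sptlc3 stands at 180 and 300 CPM in the HFD Klf5-/- libraries against 56.5 and 81.3 CPM in the Klf5+/- libraries, while Sptssb is at 0.473 CPM or lower in all 10 libraries.

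The catalytic subunit gene Sptlc3 was the 1 gene of the family that edgeR called in the HFD set, while DESeq2 called 3 and limma-voom 2. DESeq2 and limma-voom also called more of all genes than edgeR did, as counted in the closing section. Sptlc3 (ENSMUSG00000039092, mm10 chr2:139493913-139637674, plus strand) had 180 and 300 CPM in the HFD Klf5-/- libraries, against 56.5 and 81.3 CPM in the Klf5+/- libraries. The groups did not overlap, and the higher of the Klf5-/- libraries was also the one with the lower fibroblast marker sum. Sptlc3 was 3.49-fold higher in the Klf5-/- libraries (log2 fold change 1.80, SE 0.31, adjusted p = 0.041, edgeR's quasi-likelihood test over all genes). Without HFD Klf5+/- library 1 the log2 fold change was 1.57 (adjusted p = 0.134), and without Klf5+/- library 2 it was 2.09 (adjusted p = 0.122), so the call needed both control libraries. Here the remaining control was assumed to vary as the other group did. At E17.5 Sptlc3 had 76.8, 67.1 and 92.6 CPM in the Klf5-/- libraries and 91.3, 98.3 and 98.0 CPM in the Klf5+/- libraries. The groups overlapped through Klf5-/- library 3 (log2 fold change -0.28, SE 0.11, adjusted p = 0.422). Without that library the gene passed the threshold as lower, at -0.42 (adjusted p = 0.0453).

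Sptlc2, the other catalytic subunit (ENSMUSG00000021036, chr12:87305058-87388355, minus strand), had 92.2 and 112 CPM in the HFD Klf5-/- libraries, against 65.2 and 84.3 CPM in the Klf5+/- libraries. These groups did not overlap, yet the difference did not pass the test (log2 fold change 0.45, SE 0.20, adjusted p = 0.214). At E17.5 Sptlc2 had 79.7, 70.0 and 85.9 CPM in the Klf5-/- libraries, within reach of the 75.0, 83.3 and 89.2 CPM in the Klf5+/- libraries (log2 fold change -0.07, SE 0.10, adjusted p = 0.912). As a share of the summed RPKM of Sptlc2 and Sptlc3, Sptlc3 made up 86.6 ± 2.55% in the HFD Klf5-/- libraries and 72.3 ± 1.52% in the Klf5+/- libraries (SD, n = 2 each). At E17.5 the Sptlc3 share was 74.0 ± 1.26% in the Klf5-/- libraries and 76.9 ± 0.936% in the Klf5+/- libraries (n = 3 each). The libraries of the groups did not overlap in either set, and the difference was 14.3 percentage points upward in the HFD set and -2.85 points at E17.5. The size of these shares rests on the annotated exon lengths, 8102 bases for Sptlc2 and 2833 for Sptlc3. Without division by length, Sptlc2 and Sptlc3 averaged 78.5 and 78.8 CPM in the E17.5 Klf5-/- libraries and 82.5 and 95.9 CPM in the Klf5+/- libraries. In the HFD set they averaged 102 and 240 CPM in the Klf5-/- libraries and 74.7 and 68.9 CPM in the Klf5+/- libraries.

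Sptlc1, the shared partner of both catalytic subunits (ENSMUSG00000021468, chr13:53332716-53377365, minus strand), had 131 and 181 CPM in the HFD Klf5-/- libraries, against 80.9 and 94.0 CPM in the Klf5+/- libraries. The Klf5-/- libraries were the higher ones, at a log2 fold change of 0.83 (SE 0.21) that missed the threshold with edgeR (adjusted p = 0.0726) and passed it with DESeq2 (adjusted p = 0.00606). At E17.5 Sptlc1 had 80.0, 77.8 and 82.7 CPM in the Klf5-/- libraries and 93.7, 93.7 and 79.1 CPM in the Klf5+/- libraries. Klf5+/- library 3 lay inside the Klf5-/- range there (log2 fold change -0.15, SE 0.09, adjusted p = 0.693).

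The catalytic subunits differed in the sequence before their starts. Below are the bases before the starts of Sptlc2 (chr12:87388356-87388605, minus strand) and Sptlc3 (chr2:139493663-139493912, plus strand), shown because they are alternative subunits, 1 with a KLF5 peak over its start and 1 with none, and those of Sptssa (chr12:54656573-54656822, minus strand) and Ormdl2 (chr10:128821632-128821879, minus strand), whose starts also lay under a KLF5 peak. They are from RefSeq on GRCm38.p6, 5′ to 3′ on the gene's strand, with capitals marking a GC box, the letters GGGCGG or CCGCCC on the other strand, to which factors of the SP and KLF family are known to bind.
Sptlc2: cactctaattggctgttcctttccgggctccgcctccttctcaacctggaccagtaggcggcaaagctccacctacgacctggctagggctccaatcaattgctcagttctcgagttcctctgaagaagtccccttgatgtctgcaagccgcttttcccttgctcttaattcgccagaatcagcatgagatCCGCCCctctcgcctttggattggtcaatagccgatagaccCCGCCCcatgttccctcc
Sptlc3: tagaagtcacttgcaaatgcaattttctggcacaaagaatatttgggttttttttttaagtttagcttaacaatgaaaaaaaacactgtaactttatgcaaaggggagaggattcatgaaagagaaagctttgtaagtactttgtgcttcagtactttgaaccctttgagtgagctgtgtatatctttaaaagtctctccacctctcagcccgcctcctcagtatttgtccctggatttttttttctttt
Sptssa: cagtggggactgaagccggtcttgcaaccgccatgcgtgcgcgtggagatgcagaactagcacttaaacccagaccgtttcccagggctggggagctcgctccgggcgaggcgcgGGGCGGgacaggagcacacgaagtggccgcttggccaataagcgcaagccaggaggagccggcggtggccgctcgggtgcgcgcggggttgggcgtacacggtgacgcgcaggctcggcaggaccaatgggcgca
Ormdl2: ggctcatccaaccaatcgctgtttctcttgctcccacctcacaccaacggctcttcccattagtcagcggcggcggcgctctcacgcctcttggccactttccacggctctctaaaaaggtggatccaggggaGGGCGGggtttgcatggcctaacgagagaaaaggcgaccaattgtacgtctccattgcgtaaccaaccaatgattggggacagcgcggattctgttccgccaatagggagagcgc
The start of Ormdl3, not shown, also lay under a KLF5 peak. In the promoter window of 250 bases before to 50 after the RefSeq start, a GC box was found in 8 of the 9 genes, all but Sptlc3, and in 35.7% of all 32851 promoters of the table. Kdsr, with 4 GC boxes, and Ormdl1 and Sptssb, with 1 each, had no KLF5 peak within 10 kb. The 4 sequences shown therefore do not tell whether GC boxes go with KLF5 peaks. The CACCC box, GGGNGTGG or CCACNCCC on the other strand, was found in 1 of the 9 genes, Sptssb, and in 17.6% of all promoters. G and C made up 37.3% of the Sptlc3 window, 59.3% of that of Sptlc2, 57.7% of that of Ormdl2 and 70.0% of that of Sptssa, against a median of 52.7% over all promoters. In the Sptssb window, the only one with matches of both motifs, these did not overlap, and a match is a description of the sequence, not a binding site.

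Of the small subunits, Sptssa was abundant and Sptssb was near the limit of detection. Sptssa (ENSMUSG00000044408, chr12:54645374-54656572, minus strand), which encodes the widely expressed activating subunit, had 332 and 340 CPM in the HFD Klf5-/- libraries, against 260 and 195 CPM in the Klf5+/- libraries. The Klf5-/- libraries were above both others, but the difference did not pass the test (log2 fold change 0.56, SE 0.20, adjusted p = 0.143). At E17.5 Sptssa had 286, 248 and 340 CPM in the Klf5-/- libraries and 247, 315 and 356 CPM in the Klf5+/- libraries, with ranges that overlapped over most of their length (log2 fold change -0.07, SE 0.15, adjusted p = 0.949). Sptssb (ENSMUSG00000043461, chr3:69819538-69859896, minus strand), the small subunit known to admit longer acyl-CoA, had 1, 2 and 1 counts in the E17.5 Klf5-/- libraries and 1, 0 and 1 counts in the Klf5+/- libraries, all under the 3 counts that a count of 0 allows. In the HFD set it had 0 and 4 counts in the Klf5-/- libraries, against 19 and 5 counts in the Klf5+/- libraries. It fell below the low-count filter in both sets and was not tested, so 8 of the 9 genes were tested in each.

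Kdsr (ENSMUSG00000009905, chr1:106720410-106759742, minus strand), the reductase that turns the enzyme's product, 3-ketosphinganine, into dihydrosphingosine, had 45.3 and 58.8 CPM in the HFD Klf5-/- libraries, against 39.9 and 37.6 CPM in the Klf5+/- libraries. The groups did not overlap, and the difference did not pass the test (log2 fold change 0.43, SE 0.20, adjusted p = 0.223). At E17.5 Kdsr had 35.5, 31.6 and 43.4 CPM in the Klf5-/- libraries, on both sides of the 37.9, 38.5 and 41.7 CPM in the Klf5+/- libraries (log2 fold change -0.10, SE 0.12, adjusted p = 0.892).

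Among the ORMDL inhibitors, Ormdl2 and Ormdl3 stood on opposite sides of 0 in each set, and none of the 3 passed edgeR's test in either set. Ormdl2 (ENSMUSG00000025353, chr10:128817457-128821631, minus strand) had 90.7 and 92.0 CPM in the HFD Klf5-/- libraries, against 58.0 and 57.8 CPM in the Klf5+/- libraries. Libraries of a genotype lay close together and the genotypes far apart (log2 fold change 0.66, SE 0.15, adjusted p = 0.0608). DESeq2 (adjusted p = 0.00231) and limma-voom (adjusted p = 0.0443) called it as higher. At E17.5 Ormdl2 had 19.4, 19.2 and 20.9 CPM in the Klf5-/- libraries and 23.3, 27.6 and 24.7 CPM in the Klf5+/- libraries. All 3 Klf5-/- libraries were below all 3 others there (log2 fold change -0.35, SE 0.11, adjusted p = 0.241). The Ormdl2 span overlaps Dnajc14 on the opposite strand, and the strand setting of the counting is not given, so reads of the 2 genes may not be told apart.

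Ormdl3 (ENSMUSG00000038150, chr11:98581256-98587368, minus strand) had 40.8 and 38.2 CPM in the HFD Klf5-/- libraries, against 55.9 and 48.0 CPM in the Klf5+/- libraries. It was the tested gene of the family with lower values in the HFD Klf5-/- libraries (log2 fold change -0.39, SE 0.18, adjusted p = 0.212). At E17.5 Ormdl3 had 64.0, 59.5 and 64.7 CPM in the Klf5-/- libraries and 60.2, 59.1 and 60.9 CPM in the Klf5+/- libraries, which overlap (log2 fold change 0.06, SE 0.08, adjusted p = 0.896). Ormdl1 (ENSMUSG00000026097, chr1:53297095-53310309, plus strand) had 52.1 and 36.8 CPM in the HFD Klf5-/- libraries, against 41.7 and 26.9 CPM in the Klf5+/- libraries, and the groups overlapped (log2 fold change 0.37, SE 0.28, adjusted p = 0.446). At E17.5 Ormdl1 had 38.7, 32.3 and 38.6 CPM in the Klf5-/- libraries and 33.7, 37.3 and 44.7 CPM in the Klf5+/- libraries (log2 fold change -0.08, SE 0.13, adjusted p = 0.925).

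The make-up of the ORMDL transcripts followed these levels. Ormdl2 made up 61.8 ± 2.93% of the summed RPKM of the 3 genes in the HFD Klf5-/- libraries and 47.7 ± 3.77% in the Klf5+/- libraries, while Ormdl3 made up 25.1 ± 0.233% in the Klf5-/- libraries and 40.1 ± 1.01% in the Klf5+/- libraries. At E17.5 Ormdl3 made up 62.3 ± 0.532% in the Klf5-/- libraries and 57.4 ± 2.15% in the Klf5+/- libraries, and Ormdl2 made up 20.9 ± 0.708% in the Klf5-/- libraries and 25.6 ± 1.90% in the Klf5+/- libraries. The libraries of the genotypes did not overlap in any of these 4 comparisons. The Ormdl1 share overlapped in both sets. Shares are descriptions over 2 or 3 libraries and carry no test.

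**Figure D2:**
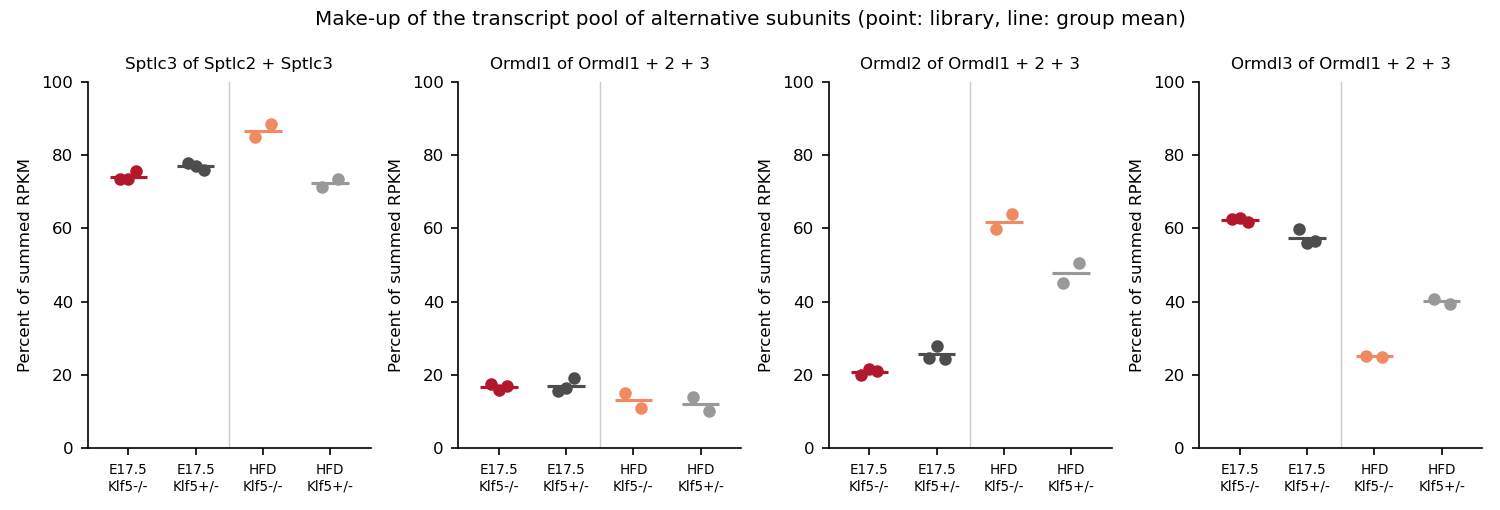
Share of Sptlc3 in the summed RPKM of Sptlc2 and Sptlc3, and of each Ormdl gene in the summed RPKM of the 3, in percent (axes over the full range), with a point per library, a line at the group mean and Klf5-/- to the left of Klf5+/-. The Sptlc3 share averages 86.6% in the HFD Klf5-/- libraries against 72.3% in the Klf5+/- libraries, and the Ormdl3 share 25.1% in the HFD Klf5-/- libraries against 40.1% in the Klf5+/- libraries.

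As a group, 1 of the 8 tested genes was called in the HFD set, Sptlc3, where 5.5% of the 15848 genes tested were called (1.48% as higher and 4.02% as lower). At an unadjusted p under 0.05, 4 of the 8 passed, beside 27.1% of all genes. The family's median log2 fold change was 0.51, beside -0.01 over all genes tested, and 7 of 8 genes lay above 0, as did 49.5% of all genes. In 6 of the 8 genes both Klf5-/- libraries were above both Klf5+/- libraries, which held for 27.4% of all genes tested, and in Ormdl3 both were below, which held for 32.7%. Leaving out 1 HFD library leaves 1 in its group, with the spread taken from the other group alone. Counts called in such fits are therefore not read as a result about the family. The log2 fold change of Sptlc3 lay between 1.426 and 2.155 in them. Its call was lost without either Klf5+/- library, as given above, and kept without either Klf5-/- library. At E17.5, 0 of 8 were called by edgeR, and also 0 by DESeq2 and by limma-voom. EdgeR called 0.0861% of 15092 genes there (0.0331% as higher and 0.053% as lower), and DESeq2 called 3.18%. At an unadjusted p under 0.05, 2 of the 8 passed, Ormdl2 and Sptlc3, beside 10.0% of all genes. The E17.5 median was -0.09, beside 0.01 over all genes, with 7 of 8 genes below 0. In Ormdl2 the groups did not overlap and Klf5-/- was lower, as in 8.18% of all genes, and no tested gene of the family showed the opposite, which held for 6.63%.

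In the HFD set the log2 fold changes of 7 of the 8 tested genes lay above 0, as did those of all 15 keratinocyte markers. Those of Ormdl3 and of all 8 fibroblast markers lay below 0. The part of these cell types in the result was not tested. When the libraries were instead scaled to the 15 keratinocyte markers, an alternative chosen after seeing the data, the median gene of the HFD set shifted to -0.795. Sptlc3 then stood at 0.975 (adjusted p = 0.0319) and stayed called. Ormdl3 stood at -1.17 and was called as lower (adjusted p = 0.00748). With that scaling 6653 of 15848 genes were called as lower and 55 as higher. The values of Sptlc2, Sptssa, Kdsr, Ormdl1 and Ormdl2 turned to between -0.382 and -0.131, none of them called, and Sptlc1 stood at 0.024.

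**Figure D3:**
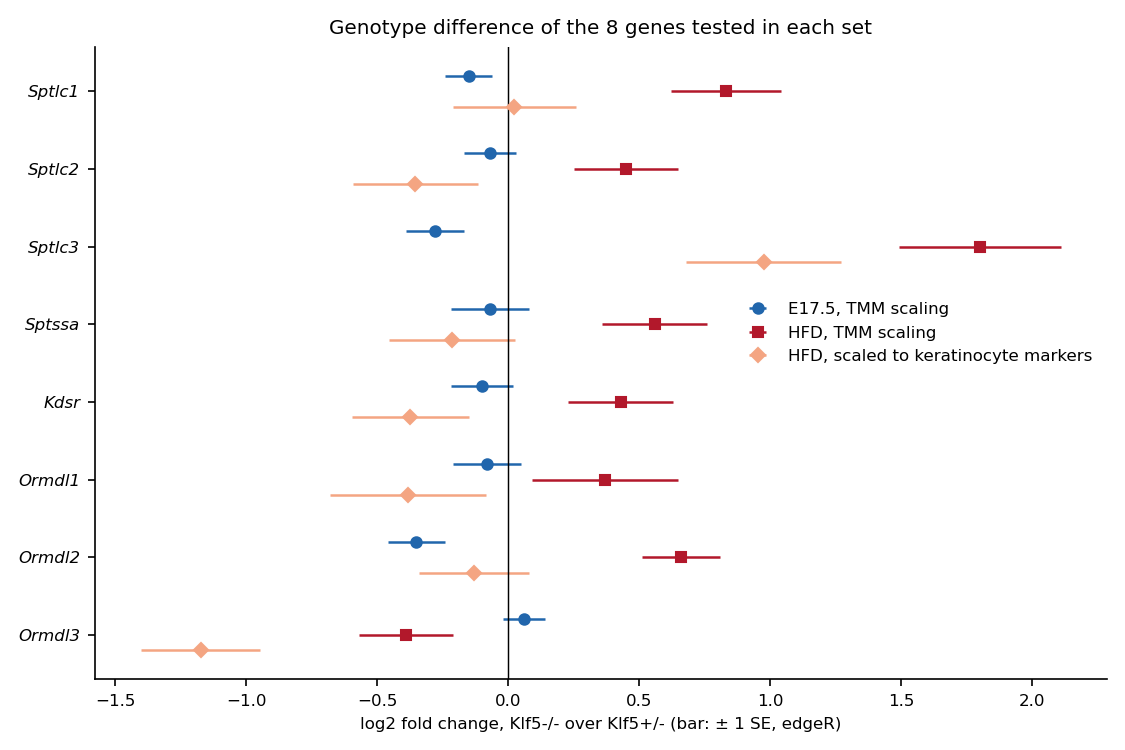
Log2 fold change, Klf5-/- over Klf5+/-, of the 8 tested genes, with bars of 1 SE, at E17.5 (circles), in the HFD set (squares) and in the HFD set scaled to keratinocyte markers (diamonds). Sptlc3 lies at 1.80 in the HFD set and at 0.975 after that scaling, whereas Ormdl3 lies at -0.39 and -1.17.

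Whether the genotype effects differed between the sets was tested in 1 model over the 10 libraries, as the HFD effect minus the E17.5 effect. This difference was called for 3 of the 8 genes, all as higher, where 14.7% of 17260 genes were called (7.07% as higher and 7.61% as lower). The difference of log2 fold changes was 2.10 for Sptlc3 (SE 0.31, adjusted p = 0.00357), 1.01 for Ormdl2 (SE 0.16, adjusted p = 0.00371) and 0.99 for Sptlc1 (SE 0.20, adjusted p = 0.0112). For each of the 3 the effect was above 0 in the HFD set and below 0 at E17.5, where none was called. Opposite signs between the sets also held for the other 5 genes, so they do not set the 3 apart. The other 5 genes did not pass, from -0.45 for Ormdl3 (adjusted p = 0.0833) to 0.64 for Sptssa (adjusted p = 0.13). The Ormdl3 difference passed with library totals (-0.745, adjusted p = 0.00956) and with DESeq2 (-0.439, adjusted p = 0.0387). Without HFD Klf5-/- library 1, Sptlc2 and Kdsr passed as well. Scaled to keratinocyte markers, Sptlc3 stayed called at 0.987 (adjusted p = 0.0154), while Sptlc1 at -0.11 and Ormdl2 at -0.058 did not. Ormdl3 at -1.51 was called as lower there (adjusted p = 0.000195), as were 10070 of 17260 genes, and 91 were called as higher. Sorting and library kit differ between the sets, the age of the HFD samples is not given, and what each contributes to this difference cannot be told apart.

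In chromatin of sorted E17.5 epithelium, a KLF5 peak lay within 5 kb of the gene start of 5 of the 9 genes, and of 22.8% of the genes tested at E17.5 (11.0% of all genes). The enrichments and q values are the authors'. Of the large subunits, Sptlc2 had a peak with its summit 15 bases before the start, 4.74-fold enriched with a −log10 q of 7.80, and Sptlc1 had a weaker one 116 bases before the start (3.57-fold, −log10 q of 3.57, rank 5597 of 6472 peaks). Sptlc3 had no KLF5 peak within 5 kb, nor within 10 kb. Sptssa had the strongest peak of the family, with its summit 31 bases after the start (4.80-fold, −log10 q of 9.76, rank 1141). The Ormdl2 peak had its summit 48 bases before the start (4.55-fold, −log10 q of 7.09). Sarnp starts 140 bases from Ormdl2 on the opposite strand, so that peak may belong to either gene. Ormdl3 had 2 weaker peaks, 10 bases after and 812 bases before the start, with −log10 q of 3.95 and 3.71. Sptssb, Kdsr and Ormdl1 had none. At a −log10 q of at least 5, the count of genes with a KLF5 peak fell to 3, namely Sptlc2, Sptssa and Ormdl2.

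H3K27ac peaks lay within 5 kb of the starts of 8 of the 9 genes (63.5% of the genes tested), all but Sptssb, and ATAC peaks at all 9 (84.4%). The H3K27ac peaks of Sptlc3 had enrichments of 2.98-fold and 2.61-fold, against 5.61-fold at Sptlc2 and 6.65-fold at Ormdl2. Low values were not particular to Sptlc3, with 3.47-fold at Ormdl1, 2.33-fold and 3.86-fold at Kdsr, and 2.63-fold and 4.98-fold at Ormdl3. Sptlc1 had 4.79-fold and Sptssa 5.26-fold. The ATAC peak of Sptlc3, 8.90-fold enriched, covered the start. Ormdl1 and Pms1 start 77 bases apart on opposite strands and share their peaks. The 3 genes without a KLF5 peak that were tested, Sptlc3, Kdsr and Ormdl1, had E17.5 log2 fold changes of -0.28, -0.10 and -0.08. The 5 genes with a KLF5 peak had E17.5 values from -0.35 for Ormdl2 to 0.06 for Ormdl3, and none of the 8 was called.

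**Figure D4:**
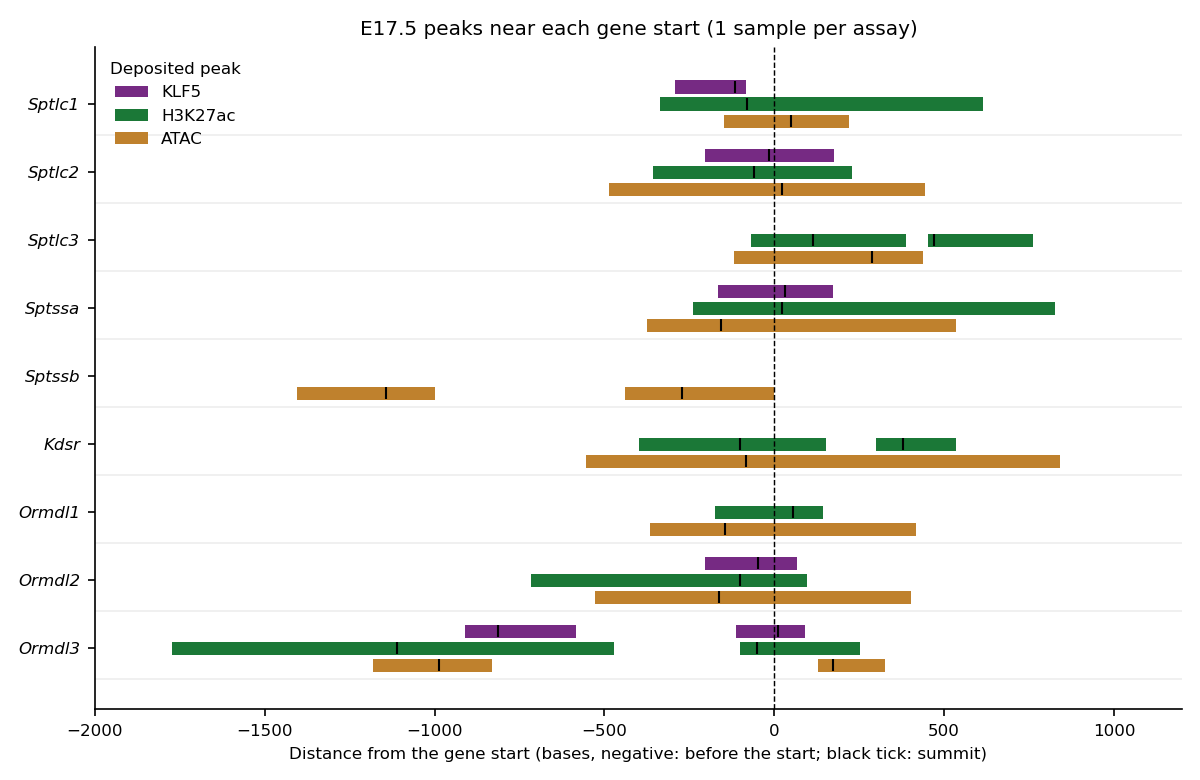
Deposited E17.5 peaks of KLF5, H3K27ac and ATAC (bars, 1 sample per assay) around each gene start, by distance in bases on the gene's strand (linear axis), with ticks at the summits. KLF5 peaks are seen at Sptlc1, Sptlc2, Sptssa, Ormdl2 and Ormdl3, and none is drawn at Sptlc3, Sptssb, Kdsr and Ormdl1.

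Genes that supply the enzyme or use its product were described from lists, by counts and medians. In the HFD set edgeR called 5.5% of all genes tested, and 1 gene called in a short list is not read as a result about that list. In the HFD set the serine supply list had 1 of 7 tested genes called, the neutral amino acid transporter Slc1a5, which fell to 9.22 ± 1.89 CPM in the Klf5-/- libraries, against 34.6 ± 10.6 CPM in the Klf5+/- libraries (SD, n = 2 each, log2 fold change -1.91, SE 0.30, adjusted p = 0.0366). Psat1, an enzyme of serine synthesis, had the next largest value (0.78, adjusted p = 0.0541). Of 10 palmitoyl-CoA supply genes, Acsl5, an acyl-CoA synthetase, rose to 274 ± 41.5 CPM in the Klf5-/- libraries, against 141 ± 14.1 CPM in the Klf5+/- libraries (log2 fold change 0.96, adjusted p = 0.0473), and Acsl6 had 0.92 (adjusted p = 0.498). Of 7 tested ceramide synthesis genes, Cers3 rose to 226 ± 54.4 CPM in the Klf5-/- libraries, against 93.3 ± 15.9 CPM in the Klf5+/- libraries (log2 fold change 1.28, SE 0.24, adjusted p = 0.0418). CERS3 is the ceramide synthase of ultra-long acyl chains in the skin barrier. Degs2, whose product makes phytoceramide, had 1.70 (adjusted p = 0.0914). The ceramide synthesis list was split, with 4 of the 7 genes above 0 and 3 below, the lowest being Cers2 at -0.88 (edgeR adjusted p = 0.061).

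Further along the pathway, none of 8 tested ceramide conversion genes was called by edgeR in the HFD set, while 4 had an unadjusted p under 0.05 (27.1% of all genes). DESeq2 called 3 of the 8 and limma-voom 0, and both tools called more of all genes than edgeR in this set. The largest values were those of the lactosylceramide synthase genes B4galt5 at -1.44 and B4galt6 at -1.20 (adjusted p = 0.105 each). Of 17 genes of ceramide and sphingoid base release and breakdown, 15 lay above 0 and edgeR called 2, beside 49.5% above 0 and 5.5% called over all genes. DESeq2 called 8 of the 17 and limma-voom 4. Sphk1, a sphingosine kinase, rose to 106 ± 16.7 CPM in the Klf5-/- libraries, against 43.1 ± 3.99 CPM in the Klf5+/- libraries (log2 fold change 1.29, adjusted p = 0.0342). Smpd1, acid sphingomyelinase, rose to 137 ± 8.08 CPM in the Klf5-/- libraries, against 74.7 ± 8.97 CPM in the Klf5+/- libraries (log2 fold change 0.88, adjusted p = 0.0454). Sgpp2, a sphingosine-1-phosphate phosphatase, had 1.69 (adjusted p = 0.121). The medians were 0.39 for serine supply, 0.38 for palmitoyl-CoA supply, 0.83 for ceramide synthesis, 0.27 for ceramide conversion and 0.52 for release and breakdown, beside 0.58 for basal and 1.00 for suprabasal keratinocyte markers. The edgeR calls of Slc1a5, Sphk1, Cers3, Acsl5 and Smpd1 were lost without either HFD Klf5+/- library and kept without either Klf5-/- library. Each of these fits leaves 1 library in a group, so the calls depend on which group gives the spread. Over them the log2 fold change ran from -2.187 to -1.555 for Slc1a5, 1.157 to 1.471 for Sphk1 and 1.05 to 1.535 for Cers3. It ran from 0.83 to 1.13 for Acsl5 and 0.763 to 1.005 for Smpd1. Scaled to keratinocyte markers, Slc1a5 stayed called as lower, as 6653 of 15848 genes were. Sphk1 then stood at 0.50 (adjusted p = 0.0748), Cers3 at 0.47 (0.15), Acsl5 at 0.15 (0.603) and Smpd1 at 0.087 (0.77).

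At E17.5 edgeR called 0 of the 48 tested genes of these 5 lists and limma-voom 0. DESeq2 called 6 (3.18% of all genes), and 13 had an unadjusted p under 0.05 in edgeR (10.0% of all genes). The list medians were 0.07 for serine supply, -0.13 for palmitoyl-CoA supply, 0.12 for ceramide synthesis, 0.01 for ceramide conversion and -0.24 for release and breakdown. Suprabasal keratinocyte markers had a median of -0.57, with all 8 below 0. The largest values in the lists were -0.97 for the epidermal ceramidase gene Acer1 (adjusted p = 0.167) and -0.76 for the neutral ceramidase gene Asah2 (adjusted p = 0.0868), where 12 of 17 genes of the list lay below 0. Acsl1 had -0.61 (adjusted p = 0.108) and Acacb -0.70 (adjusted p = 0.733). Slc1a4 had 0.41 and Slc1a5 0.26, and Cers3 had -0.37 and Cers2 0.35. B4galt5 had 0.33 and Samd8 -0.17.

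**Figure D5:**
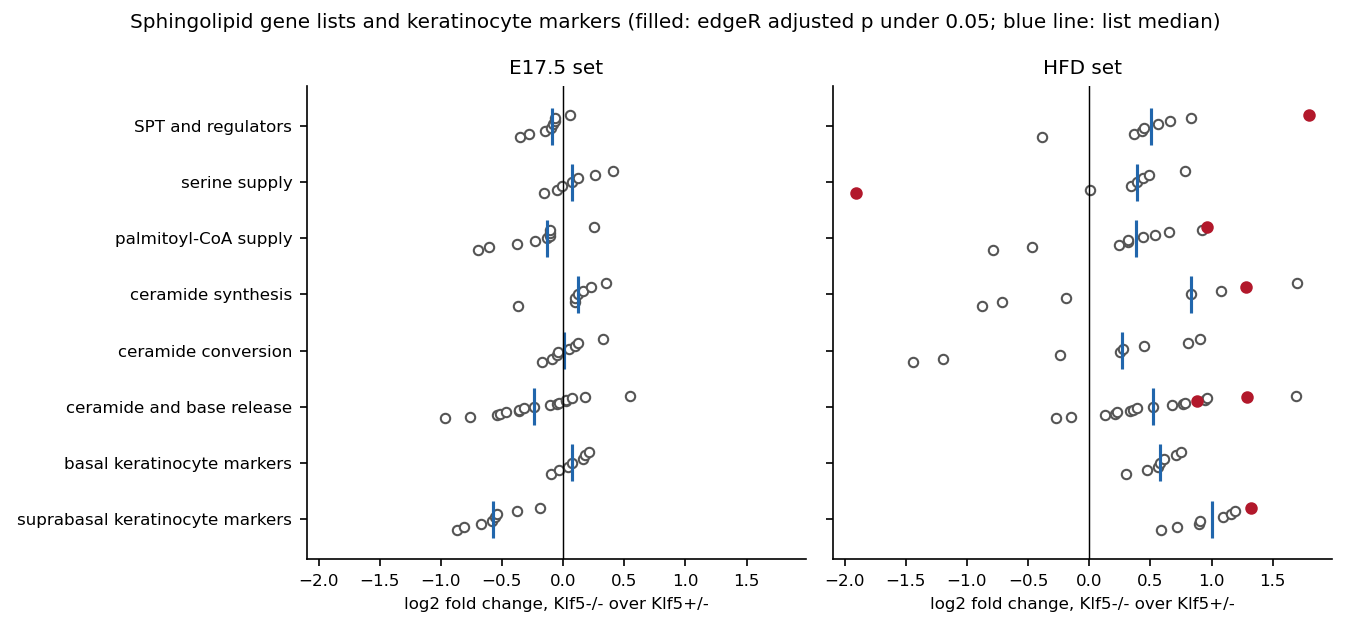
Log2 fold change, Klf5-/- over Klf5+/-, of each tested gene of the family, of the 5 pathway lists and of keratinocyte markers, at E17.5 (left) and in the HFD set (right), with filled points for genes called by edgeR and blue lines at list medians. At E17.5 no point is filled, and in the HFD set the family median is 0.51 while the suprabasal marker median is 1.00.

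Of 14105 genes tested in both sets, those whose log2 CPM was most like that of Sptlc3 across the 10 libraries, after the mean of each set was removed, were Fdps (Pearson's r = 0.992), Usp25 (0.989) and Srd5a1 (0.988). For Sptlc2 they were Cab39 (0.989), Pak1ip1 (0.983) and Dpm2 (0.978). The points share libraries and genotype, and the values are a description with no test. No such genes were ranked for Sptssb, which was not tested.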

How the data were processed

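For each RNA library the authors deposited unnormalized read counts by Ensembl gene. The submitters' processing notes name STAR 2.6.0b, HTSeq and the build mm10 (GRCm38). The HFD files also hold RPKM values that the authors deposited; these equalled counts per exon length and per all reads of the file within a relative deviation of 7.6e-14, and E17.5 RPKM was computed the same way. The authors deposited MACS2 peaks per sample, per the submitters' processing notes, with a fold enrichment (a ratio over local background) and −log10 p and q values, used only to describe peaks. Bowtie 1.0.1 and Bowtie2 2.2.3 are also named there. The control used in calling and the strand setting of the counting are not given in these sources. Reads naming no gene, 13.38 to 16.85% of each file, stayed out of library sizes. At these depths 3 counts are 0.0646 to 0.0943 CPM, and intervals or floors cover counting error only.

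Each set was fitted alone on counts with edgeR 4.0.16 in R 4.3.3 (TMM, filterByExpr, robust quasi-likelihood test, Benjamini-Hochberg adjustment over all genes tested, threshold 0.05), without a replicate block. An SE is the log2 fold change over the square root of F. The difference of effects was a contrast over all 10 libraries. Alternatives used DESeq2 1.42.0, limma-voom (limma 3.58.1), other scalings and filters, and left-out libraries, and the fits were tested on simulated data. Peaks were assigned when they overlapped a window of 5 kb around the annotated start by at least 1 base. E17.5 counts were joined by Ensembl identifier. RefSeq promoters matched all 9 genes.

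The members, lists and tests were chosen with earlier results of these data known. Named genes are all 9 members, Klf5, list genes past the threshold and the 2 largest absolute log2 fold changes per list and set, and the 3 genes most like Sptlc2 and Sptlc3; Dnajc14, Sarnp and Pms1 were named for their position. HaCaT peaks and the IgG sample were not used here.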

Additional observations from a re-analysis of the deposited data

Results flagged for a closer look

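The genotype effects of the 2 sets were compared as HFD minus E17.5, with edgeR's quasi-likelihood test in the fit of all 10 libraries. This test picked out 3 of the 8 tested genes of the family, beside 14.7% of 17260 genes. The difference of log2 fold changes was 2.10 for Sptlc3 (adjusted p = 0.00357), 1.01 for Ormdl2 (adjusted p = 0.00371) and 0.99 for Sptlc1 (adjusted p = 0.0112). In the HFD set both Klf5-/- libraries were above both Klf5+/- libraries in these 3 genes. The same held for 6 of the 8 tested genes of the family and 27.4% of all genes tested, so it does not set the 3 apart. The same test picked out all 5 pathway genes called in the HFD set. It gave 1.83 for Sphk1 (adjusted p = 0.00272), 1.66 for Cers3 (adjusted p = 0.00367), 1.25 for Smpd1 (adjusted p = 0.00267), 1.19 for Acsl5 (adjusted p = 0.00462) and -2.15 for Slc1a5 (adjusted p = 0.0044). Klf5 itself differed between the sets by 1.06 (adjusted p = 0.0159), and by 0.784 without HFD Klf5+/- library 2 (adjusted p = 0.0517). Scaled to keratinocyte markers, 91 of 17260 genes were called as higher and 10070 as lower. The differences of Sptlc3, Sphk1 and Slc1a5 stayed called there, and those of Sptlc1, Ormdl2, Cers3, Smpd1, Acsl5 and Klf5 did not. Suprabasal keratinocyte markers differed in the same direction, with 7 of 8 called as higher and a median of 1.46, and 5 of 8 fibroblast markers were called as lower with a median of -4.19. The part of these cell types in the differences was not tested, and what sorting and library kit contribute cannot be told apart. Directions follow the labelled genotypes, which counts over the whole Klf5 gene cannot check.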

How the results depend on the processing

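Of 698 alternative values of 51 results, 575 kept their direction and their side of the threshold or stayed within the allowed range. The number of family members called in the HFD set, 1 by edgeR with TMM, was 3 with DESeq2, 2 with limma-voom, 3 without a low-count filter, 3 with a replicate block, 4 in the fit of all 10 libraries and 2 when scaled to keratinocyte markers, and 0 to 6 when 1 library was left out. All genes called in the HFD set, 872, became 1340 with library totals, 2906 with DESeq2, 1942 with limma-voom, 2396 without a filter, 1520 with a replicate block, 3672 in the fit of all 10, 6708 with keratinocyte scaling and 19 to 5389 with 1 library left out. At E17.5 the 13 genes called became 6 with library totals, 461 with DESeq2, 0 with limma-voom, 237 without a filter, 2 at a minimum mean of 1 CPM, 42 with a replicate block, 3 in the fit of all 10, 187 with keratinocyte scaling, 501 with replicates 1 and 2 alone and 0 to 513 with 1 library left out. Members called at E17.5 were 0 to 1 with 1 library left out, the 1 being Sptlc3 without Klf5-/- library 3. For the difference, members called were 3 to 5 and genes called 1266 to 4467 with 1 library left out, and 10161 genes with keratinocyte scaling, where 2534 were called. Library totals moved the HFD median of all genes to -0.23 and that of the difference to -0.312, and the HFD calls split into 138 higher and 1202 lower, against 235 higher and 637 lower with TMM. The cause of these shifts was not tested.

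At E17.5, leaving out Klf5-/- library 2 gave 0.005 for Sptlc2, 0.032 for Sptssa, 0.001 for Kdsr and 0.001 for Ormdl1, and leaving out Klf5+/- library 3 gave 0.052 for Sptssa and 0.039 for Ormdl1. Over the left-out libraries these ranged from -0.141 to 0.005 for Sptlc2, -0.203 to 0.052 for Sptssa, -0.233 to 0.001 for Kdsr and -0.168 to 0.039 for Ormdl1. Keratinocyte scaling, chosen after seeing the data as were replicates 1 and 2 alone, moved the E17.5 median gene to 0.286 and gave 0.135 for Sptlc1, 0.196 for Sptlc2, 0.188 for Sptssa, 0.172 for Kdsr and 0.181 for Ormdl1. In the HFD set it gave -0.354 for Sptlc2, -0.215 for Sptssa, -0.373 for Kdsr, -0.382 for Ormdl1 and -0.131 for Ormdl2. For the difference, with the median gene at -1.08, it gave -0.11 for Sptlc1, -0.549 for Sptlc2, -0.403 for Sptssa, -0.545 for Kdsr, -0.564 for Ormdl1 and -0.058 for Ormdl2, and -0.013 for Klf5. Genes with a KLF5 peak numbered 3 at a −log10 q of at least 5. Same-numbered libraries deviated together with r of 0.03, -0.10 and 0.18 at E17.5. In the HFD set r was 0.18, the same for both pairs because 2 libraries deviate equally from their mean. That value cannot decide on pairing there, and the numbers were not taken to pair libraries in either set. With library totals the HFD calls of Acsl5 (0.74, adjusted p = 0.0703) and Smpd1 (0.66, adjusted p = 0.0672) were lost. With the replicate block in the HFD set, Sptlc1 (adjusted p = 0.0332) and Ormdl2 (adjusted p = 0.0442) passed beside Sptlc3.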
